A study of Mus musculus with 9 samples.

Results

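The insulin-like growth factor (IGF) system was followed through 10 genes chosen by name, in the mouse hepatocyte line AML12. They are the growth factors *Igf1* and *Igf2*, the receptors *Igf1r*, *Igf2r* and *Insr*, and the binding proteins *Igfbp1*, *Igfbp2*, *Igfbp3*, *Igfbp4* and *Igfbp7*. Of the 13643 genes that at least 1 of the 2 deposited tables lists, 13259 are in both, and these include 8 of the 10 genes. *Igfbp1* and *Igfbp2* are in neither table and their levels were not analysed here. The sources used here do not say why a gene is not listed, so absence need not mean a low level. For comparison, 55.9% of the 22380 protein-coding genes of GENCODE M1 are in both tables.

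The study asked what happens when nuclear speckles are disrupted by depleting Srrm2, a protein of their core. RNA was sequenced from 3 control libraries, 3 with *Srrm2* shRNA 1 and 3 with *Srrm2* shRNA 2. The knockdown cells had carried lentivirus for 5 days. No such time is given for the control libraries. All cells grew with serum, dexamethasone and an ITS supplement (insulin, transferrin and selenium), so insulin was present in every group. The labels describe the shRNA libraries as replicates without saying whether they came from separate cultures.

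IGF1 and IGF2 are small secreted hormones that resemble insulin. They signal through the receptor tyrosine kinase IGF1R and, in part, through the insulin receptor, whereas IGF2R binds IGF2 and carries it to lysosomes without a kinase of its own. In blood and tissue fluid most IGF is held by binding proteins, which prolong its life and set how much reaches the receptors. The adult liver makes most of the circulating IGF1 and is also a main source of IGFBP1, whose gene is repressed by insulin.

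The value used is the mean normalized count of a gene. One table gives its mean over the control and shRNA 1 libraries, and the other its mean over the control and shRNA 2 libraries. No value per library was used, so a level here has no replicate error, control and knockdown cells are averaged in it, and no difference was tested. Fewer cells and less RNA per cell cannot be told apart in such bulk samples. The means of all listed genes sum to 6144608 in the shRNA 1 table and 6393456 in the shRNA 2 table, and the lowest listed means are 1.56 and 1.92.

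The growth factors were the least abundant listed genes of the system. *Igf1* (ENSMUSG00000020053.11), at chromosome 10, 87321010 to 87399792 (mm9, + strand), had a mean normalized count of 31.1 in the shRNA 1 table and 33.6 in the shRNA 2 table. *Igf2* (ENSMUSG00000048583.9), the fetal growth factor of the imprinted *Igf2* and *H19* locus, lies at chromosome 7, 149836673 to 149852721 (- strand). Its mean was 4.46 in the shRNA 1 table and 2.27 in the shRNA 2 table, near the lowest listed values. *H19*, the noncoding RNA 72624 bases away on the same strand, had means of 3.02 and 2.43.

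The 3 receptors had means between 1025 and 1427 normalized counts. *Igf1r* (ENSMUSG00000005533.8, chromosome 7, + strand, 75097713 to 75371484) had means of 1284 and 1427 in the shRNA 1 and shRNA 2 tables. *Insr* (ENSMUSG00000005534.8, chromosome 8, - strand, 3150922 to 3279617) had means of 1146 and 1280. *Igf2r* (ENSMUSG00000023830.7, chromosome 17, - strand, 12875272 to 12962530) had means of 1025 and 1270. *Airn*, the antisense noncoding RNA that overlaps the start of *Igf2r* and is known for silencing its paternal copy, was itself listed with means of 557 and 609. The exons of *Airn* share 0% of the exon bases of *Igf2r*, and although the libraries were strand-specific, the sources used here do not say whether the counting used strand.

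Among the binding proteins, *Igfbp4* and *Igfbp7* stood far above *Igfbp3*, also per kb of exon (below). *Igfbp4* (ENSMUSG00000017493.5, chromosome 11, + strand, 98902558 to 98913969), whose protein holds IGFs away from their receptors until it is cut, had means of 4499 and 4578. *Igfbp7* (ENSMUSG00000036256.6, chromosome 5, - strand, 77778265 to 77837070), a relative of the family that binds IGFs only weakly, had means of 1788 and 2336. Of its exon bases, 7.01% lie in exons of *Polr2b* and of a second gene model on the opposite strand. Neither is listed, so their levels are not known here. *Igfbp3* (ENSMUSG00000020427.5, chromosome 11, - strand, 7106089 to 7113926), the main carrier of IGF1 in blood, had means of 51.0 and 61.2. It lies 3539 bases from *Igfbp1*, on the opposite strand, and *Igfbp2* has the same kind of neighbour in *Igfbp5*, 5457 bases away and also not listed.

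Levels of different genes were compared per kb of exon, as the union of all annotated exons. On this scale *Igfbp4* had 1905 normalized counts per kb in the shRNA 1 table and 1938 in the shRNA 2 table, above 99.3% and 99.4% of the listed protein-coding genes. *Igfbp7* followed at 1474 and 1926 per kb, above 99.1% and 99.3%. In the shRNA 2 table these binding proteins were therefore nearly equal on this scale, while in the shRNA 1 table *Igfbp4* was higher. The near equality depended on the length used. Per kb of the longest coding transcript, *Igfbp4* had 2186 normalized counts in the shRNA 2 table and *Igfbp7* 1926. On the exon scale *Igf1r* came next at 287 and 319 per kb, above 91.9% and 92.5% of the genes.

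*Insr* had 119 and 132 normalized counts per kb and *Igf2r* 109 and 135, so *Igf2r* stood slightly higher in the shRNA 2 table only. Without division by length *Insr* was higher in each table, with 1280 against 1270 in the shRNA 2 table. *Igfbp3*, at 16.3 and 19.6 per kb, was above 26.4% and 29.0% of listed protein-coding genes. *Igf1*, at 3.14 and 3.38 per kb, was above 10.2% and 10.5%, and *Igf2*, at 0.81 and 0.41 per kb, above 2.20% and 0.57%. The system in these cells thus had abundant mRNA for 2 binding proteins and for the receptors, and little for either growth factor.

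**Figure D1:**
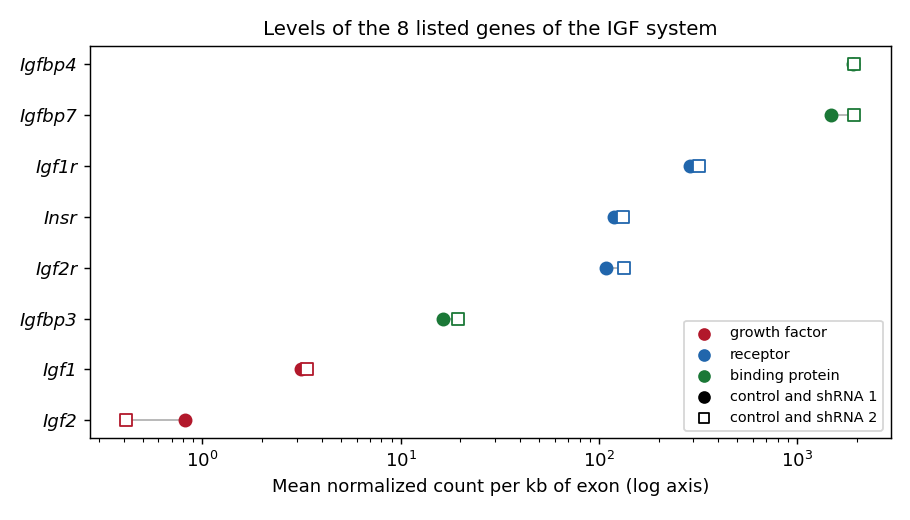
Mean normalized count per kb of exon (log axis) of the 8 listed genes, with filled circles for the mean over control and shRNA 1 libraries and open squares for the mean over control and shRNA 2 libraries; there are no error bars because no value per library was used. *Igfbp4* and *Igfbp7* sit at 1474 or more, the receptors between 109 and 319, and *Igf1* and *Igf2* below 4.

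The bases before the transcription start of 3 binding protein genes are shown, for the most abundant gene, for the gene with the largest difference in counts between the tables and for the insulin-repressed gene that no table lists. They are 250 bases each from RefSeq on GRCm38, not the build of the files, and run 5' to 3' on the strand of the gene. *Igfbp4* is at chr11:99040994-99041243 on the + strand, *Igfbp7* at chr5:77408046-77408295 on the - strand and *Igfbp1* at chr11:7197537-7197786 on the + strand. Capitals mark the TATA box motif TATAAA in *Igfbp4* and, in *Igfbp1*, the core CAAAACA of the insulin response sequence known from this gene.
Igfbp4: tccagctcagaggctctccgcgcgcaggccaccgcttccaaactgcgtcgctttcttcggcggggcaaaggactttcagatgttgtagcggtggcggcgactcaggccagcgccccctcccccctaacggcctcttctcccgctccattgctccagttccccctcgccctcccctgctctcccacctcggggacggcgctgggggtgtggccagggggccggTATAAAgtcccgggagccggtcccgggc
Igfbp7: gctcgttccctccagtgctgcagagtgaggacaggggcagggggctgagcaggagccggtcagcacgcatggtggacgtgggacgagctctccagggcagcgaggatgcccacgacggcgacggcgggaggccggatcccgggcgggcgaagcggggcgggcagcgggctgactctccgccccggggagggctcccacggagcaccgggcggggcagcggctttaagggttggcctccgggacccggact
Igfbp1: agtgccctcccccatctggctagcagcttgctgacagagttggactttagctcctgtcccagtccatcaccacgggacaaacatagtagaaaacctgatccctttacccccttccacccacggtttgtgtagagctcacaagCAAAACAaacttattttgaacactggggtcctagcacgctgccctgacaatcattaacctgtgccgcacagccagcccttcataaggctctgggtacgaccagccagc

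*Igfbp1* was the only one of 13 such windows, from 9 of the genes, to hold CAAAACA, searched on both strands, against 5.56% of all 32851 windows. *Igfbp4* was the only one to hold TATAAA, searched on the strand of the gene, against 7.59% of all windows. No window of these genes held both motifs. *Insr* has no window in the table used. Over all windows the median number of CG dinucleotides was 6 and the upper quartile 16. The windows of *Igfbp4*, *Igfbp7*, *Igfbp3*, *Igf1r* and *Igf2r* held 22, 26, 32, 42 and 27. The 4 windows of *Igf2* held 6, 22, 10 and 1, those of *Igfbp2* 14 and 11, and *Igf1* and *Igfbp1* had 5 each. Scarce and abundant genes thus both had windows above the upper quartile. These letters describe the windows and say nothing of which factors bound them.

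The means of the 2 tables can be set against each other, because both comparisons are described as using the control libraries. The labels of the 3 control samples all name the shRNA 1 table. One of them also names the shRNA 2 table, and the others name tables of further hairpins that are not among the samples, so the shared controls rest on the study design rather than on every label. The shRNA 2 table runs higher by a factor of 1.048 in the median gene, taken over genes whose means reach 100, and its means were divided by this factor. With shared controls, a ratio of means above 1 then says that the level was higher with shRNA 2 than with shRNA 1, and 2 times the difference of the scaled means is the difference between the hairpin groups. Taking the means as exact, the fold between the hairpin groups is at least as large as the ratio of the means, since the controls dilute it. Neither table mean, nor their ratio, says how a gene changed against control cells.

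The ratio of means was largest for *Igfbp7* among the 7 genes of the system whose means reach 10 in each table. Its log2 ratio was 0.32, a ratio of 1.247, which is a difference of 882 normalized counts between the hairpin groups, higher with shRNA 2. Of the 1160 genes whose level was within 2-fold of that of *Igfbp7*, 2.76% had a ratio farther from 1. *Igf2r* came second with a log2 ratio of 0.24, or 374 normalized counts more with shRNA 2, and 7.24% of 2183 genes of like level were farther from 1. *Airn*, on the opposite strand, had a log2 ratio of 0.06.

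*Igfbp3* had a log2 ratio of 0.19, or 14.7 normalized counts more with shRNA 2. At its lower level ratios scatter more widely, and 31.7% of genes of like level were farther from 1. *Insr* and *Igf1r* had log2 ratios of 0.09 and 0.08, with 43.1% and 46.6% of genes of like level farther from 1. The values of *Igf1*, 0.04, and of *Igfbp4*, -0.04, were closer to 0 than those of most such genes, of which 84.8% and 75.9% were farther. *Igfbp4* was the only one of the 7 with a lower scaled mean in the shRNA 2 table, and without the scaling its log2 ratio was 0.03. *Igf2* had a log2 ratio of -1.04, but on means of 4.46 and 2.27, and it was left out of the counts for its low level. Of the 1137 genes of like level, 3.34% had a ratio farther from 1.

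None of the 7 had a scaled mean at least 25% higher or 20% lower in the shRNA 2 table, which is the same fold in either direction. Of all 11451 genes whose means reach 10 in each table, 4.02% were past this limit on the higher side and 4.28% on the lower, so none among 7 does not set the members apart. The median log2 ratio of the 7 was 0.09, and 6 of them were above 0, where the median of all genes was 0.0043 and 51.2% were above 0. These are counts without a test. *Igfbp7* was just inside the limit, and scaling the tables by their summed means put it past it, with a log2 ratio of 0.33.

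**Figure D2:**
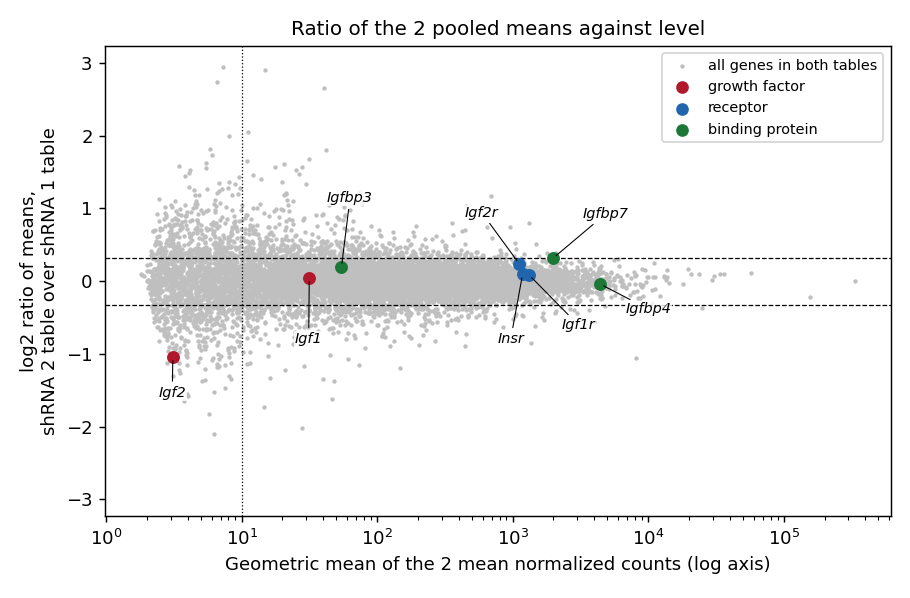
Log2 ratio of the scaled shRNA 2 table mean over the shRNA 1 table mean against the geometric mean of both (log axis), for the 13259 genes in both tables (grey) and the 8 listed members (coloured by role). Dashed lines mark means 25% higher and 20% lower and the dotted line a mean of 10. *Igfbp7* lies at the upper dashed line with a log2 ratio of 0.32, and *Igf2* at -1.04 lies left of the dotted line, with 3.34% of genes of like level farther from 1.

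*Srrm2* itself, the targeted gene, had means of 3428 and 3759, which is 316 normalized counts more with shRNA 2 after scaling, at a ratio of 1.05. The depth of its knockdown cannot be read from means that include the control libraries.

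Beside the members, 47 other genes of insulin and IGF signalling were looked up. Of these, 37 are in both tables, *Stc1* and *Pappa2* are in 1 table each, and 8 are in neither, among them the binding proteins *Igfbp5* and *Igfbp6* and the insulin genes *Ins1* and *Ins2*. Among the 36 whose means reach 10 in each table, *Grb10* was past the limit on the higher side and *Akt1* on the lower. Of all 11451 such genes, 4.02% were past it on the higher side and 4.28% on the lower. A count of 1 among 36 on each side thus does not set the pathway genes apart. The median log2 ratio of the 36 was -0.03, with 16 above 0 and 20 below, where 51.2% of all such genes were above 0.

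The widest ratio among these 36 belonged to a scarce gene. *Grb10*, an adaptor that restrains the insulin and IGF1 receptors, had means of 10.4 and 14.2 and a log2 ratio of 0.37, and 25.3% of genes of like level were farther from 1. Of the Akt kinases, which carry the signal onward, *Akt2* had means of 540 and 689 and a log2 ratio of 0.28, while *Akt1* had means of 1318 and 1104 and a log2 ratio of -0.32. Genes of like level were farther from 1 in 5.63% of cases for *Akt2* and in 2.84% for *Akt1*. The main Akt isoforms thus lay on opposite sides, *Akt2* higher and *Akt1* lower with shRNA 2 than with shRNA 1.

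*Rptor*, the mTORC1 scaffold, had means of 601 and 711 and a log2 ratio of 0.18. On the lower side, *Irs2*, the main insulin receptor substrate of the liver besides *Irs1*, had means of 397 and 344 and a log2 ratio of -0.28. *Irs1* had means of 745 and 754 and a log2 ratio of -0.05. *Igf2bp3*, which binds *Igf2* mRNA and is named for it, had means of 110 and 97.7 and a log2 ratio of -0.24. *Igfals*, the third part of the IGF1 carrier complex with *Igfbp3*, had means of 32.8 and 36.5, which are 11.3 and 12.6 normalized counts per kb, above *Igf1* at 3.14 and 3.38 per kb. *Ghr*, the growth hormone receptor that drives *Igf1* in liver, had means of 374 and 382, or 41.3 and 42.2 per kb. *H19*, left out of the 36 for its low means, had a log2 ratio of -0.38.

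**Figure D3:**
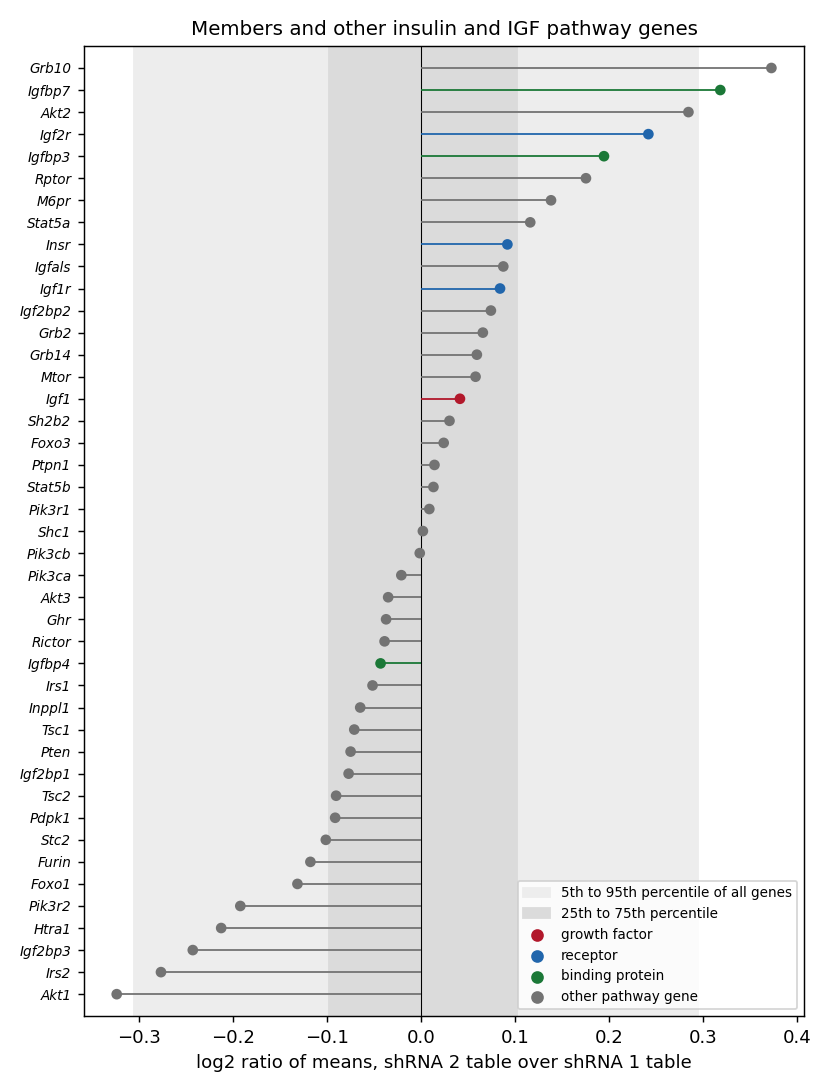
Log2 ratio of the scaled shRNA 2 table mean over the shRNA 1 table mean for the 7 members (coloured by role) and 36 other pathway genes (grey) whose means reach 10 in each table; light and dark bands hold the middle 90% and 50% of all 11451 such genes. *Grb10*, *Igfbp7* and *Akt1* lie outside the light band, which runs from -0.30 to 0.29.

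The markers of the labelled cell type were present, and so were most of the cholangiocyte markers looked up. All 9 hepatocyte markers looked up are in both tables, from 39.4 for *Apoa1* to 20192 for *Apob* in the shRNA 1 table, with *Alb* at 2151 and 1814. Of 4 cholangiocyte markers 3 are listed, with means from 670 to 2851 in the shRNA 1 table. *Krt19*, at 2851 and 2753, was above *Alb* in each table, and *Krt7* had means of 1351 and 1617. The lists therefore do not set these cells apart as hepatocytes rather than cholangiocytes. Of the stellate or fibroblast markers 1 of 5 is listed, at 3.85, of the endothelial markers 0 of 4, and of the leukocyte markers 2 of 4, at 5.30 and 25.1. Summed levels of the markers moved little between the tables, from 45025 to 46087 for hepatocytes and from 30.4 to 35.3 for leukocytes, before scaling.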

How the data were processed

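RNA was sequenced from AML12 cells in 3 control libraries and 3 libraries for each of 2 *Srrm2* shRNAs. The authors mapped trimmed reads to mm9 with TopHat2, kept unique concordant pairs, used HTSeq to obtain read counts per gene of GENCODE M1, and compared each hairpin with the control in DESeq2 1.8.2. The unit used, as deposited by the authors, is a signal, the mean normalized count of a gene over the 6 libraries of a comparison. The deposited fold changes, standard errors, test statistics and p-values are the authors' own comparisons and were not used. No value per library was used, so there is no test, replicate error or depth per library.

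Gene identifiers all matched GENCODE M1 on NCBIM37, the assembly of mm9. Means of the shRNA 2 table were divided by the median ratio over the 7757 genes whose means reach 100 in each table. Genes were counted where the scaled mean was at least 25% higher or 20% lower and means reached 10 in each table, and the step was checked on simulated data. The genes and lists were chosen with earlier results of these data known. All members are named, and of the pathway genes whose means reach 10 in each table the 3 with the largest ratios in each direction, plus *Irs1*, *Igfals*, *Ghr*, *H19*, *Igfbp5*, *Igfbp6*, *Ins1*, *Ins2*, *Stc1* and *Pappa2*, picked after their values or absence were seen, as were *Airn* and *Polr2b*. Alternatives were other scalings, folds, minimum means and gene lengths. Python 3.11.15, numpy 2.4.6, pandas 2.3.3 and matplotlib 3.10.9 were used.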

Additional observations from a re-analysis of the deposited data

How the results depend on the processing

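Scaling the tables by their summed means or not at all put 1 member, *Igfbp7*, past the fold where the median scaling had 0, with log2 ratios of 0.33 and 0.39. Without scaling *Igfbp4* moved from -0.04 to 0.03, and *Igf2* stayed at a log2 ratio below 0 under all 3 alternatives. The median over all genes moved no member past the fold. The share of all genes past the fold depended on the limits. A fold of 1.5 left 0.865% higher and 0.716% lower with shRNA 2, a minimum mean of 100 gave 1.65% and 2.55%, and no minimum gave 6.72% and 6.52%. The order of the 8 members by level in the shRNA 1 table was the same with the longest coding transcript as length and without division by length. In the shRNA 2 table *Igf2r* stood above *Insr* with either length and below it without division by length. No paired analysis was possible because the tables used hold no value per library, and for the same reason no library could be left out.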
